A study of Mus musculus with 6 samples.

Results

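Id1, Id2 and Id3 encode the inhibitors of DNA binding, and Tcf3, Tcf4 and Tcf12 encode the E proteins that these inhibitors bind. Their probe sets were compared between LSK cells of mice labelled Gfi1 knockout and of wild-type mice. Members were taken by gene symbol: every probe set that is no array control and whose platform annotation gives 1 symbol, that of a member. This gave 16 probe sets of 6 genes, of 20380 probe sets with 1 symbol of 12393 genes. LSK cells are bone marrow cells that lack lineage markers and carry Sca-1 and Kit, and in which haematopoietic stem cells and early progenitors are concentrated. They were sorted by flow cytometry, and each of the 6 samples was amplified in 2 rounds from 10 ng of total RNA and hybridised to 1 Affymetrix array. Labels assign 3 arrays to Gfi1 knockout mice and 3 to wild-type mice, with sample numbers 5, 7 and 8 on either side. They give no strain, age, design of the knockout allele or number of mice per sample, so the p-values rest on a spread between samples that may be technical.

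Id proteins have the helix-loop-helix surface through which such proteins pair, but lack the basic region that touches DNA. A pair of an Id and an E protein therefore cannot bind its DNA site, the E-box, so Id levels set how much E protein is free to act. In blood formation free E protein favours the lymphoid programme, and Id proteins are known to hold it back in myeloid and innate lymphoid cells. Tcf3 and Tcf4 here are the E protein genes, not the Wnt effectors Tcf7l1 and Tcf7l2, which have been called by the same names. Gfi1 is a zinc finger repressor that binds sites with an AATC core, and Id genes are among its known targets.

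The sequence just upstream of a start site is where both kinds of factor could bind, so promoter windows of member genes are shown with those letters marked. Each window runs from 250 bases before to 50 bases after the start, 5′ to 3′ on the gene's own strand, in RefSeq's GRCm38.p6 assembly. Capitals mark the E-box letters CANNTG and the Gfi1 core AATC, which reads GATT on the other strand. Both strands were searched, and in these windows no E-box overlapped a core. Windows were matched by symbol for 4 of the 5 genes Id1, Id2, Id3, Tcf3 and Tcf12, with no entry for Id1. Of 3 windows of Tcf12, the 1 that held the core is shown.
Id3, chr4:136143572-136143871, plus strand: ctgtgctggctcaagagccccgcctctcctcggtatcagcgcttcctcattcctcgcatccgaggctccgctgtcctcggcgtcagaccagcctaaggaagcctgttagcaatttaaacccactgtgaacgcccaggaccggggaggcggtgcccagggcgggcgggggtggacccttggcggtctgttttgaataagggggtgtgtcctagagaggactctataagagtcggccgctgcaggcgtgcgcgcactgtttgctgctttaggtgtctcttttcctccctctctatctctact
Id2, chr12:25096043-25096342, minus strand: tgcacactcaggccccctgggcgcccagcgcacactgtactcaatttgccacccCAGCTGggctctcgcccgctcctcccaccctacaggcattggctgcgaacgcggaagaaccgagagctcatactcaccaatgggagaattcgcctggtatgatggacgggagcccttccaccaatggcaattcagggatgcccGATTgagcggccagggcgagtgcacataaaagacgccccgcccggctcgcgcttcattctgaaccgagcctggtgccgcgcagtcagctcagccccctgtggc
Tcf3, chr10:80433586-80433885, minus strand: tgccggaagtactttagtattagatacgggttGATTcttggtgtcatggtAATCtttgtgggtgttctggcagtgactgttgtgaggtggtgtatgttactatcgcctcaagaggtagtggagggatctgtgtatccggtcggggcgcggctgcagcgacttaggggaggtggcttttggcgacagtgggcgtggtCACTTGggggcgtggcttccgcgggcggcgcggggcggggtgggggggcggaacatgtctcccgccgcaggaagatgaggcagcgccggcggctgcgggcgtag
Tcf12, internal start, chr9:71896047-71896346, minus strand: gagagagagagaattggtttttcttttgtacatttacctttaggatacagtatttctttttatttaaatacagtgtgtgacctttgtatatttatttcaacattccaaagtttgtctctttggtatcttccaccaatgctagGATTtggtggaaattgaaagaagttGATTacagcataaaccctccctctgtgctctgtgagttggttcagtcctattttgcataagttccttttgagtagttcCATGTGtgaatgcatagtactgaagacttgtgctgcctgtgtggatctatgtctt
The Id3 window held 0 E-boxes and 0 cores, and the Id2 window held 1 of each. The Tcf3 window held 1 E-box and 2 cores. The Tcf12 window shown held 1 E-box and 2 cores, of which 1 had the longer form AATCNNNGC. The Tcf12 windows not shown held 1 and 2 E-boxes and 0 cores. Such letters are common: 72.3% of 32851 mouse promoter windows held an E-box, 73.1% held the core and 10.3% the longer form. A match is only a run of letters, and no match says nothing about the factor.

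All values are the authors' deposited linear MAS5 signals in arbitrary units, scaled alike on every array. Median signals over the 6 arrays were 286 to 335. Of 27 Bacillus control probe sets, which mouse RNA should not match, the brightest read 100.2 to 162 on the 6 arrays, and a signal at or below it is called below the control level. Differences were computed on log2(signal + 16) as knockout-labelled minus wild type, a scale that understates the change of dim probe sets. The linear model tool limma tested the brightest 60%, 13575 probe sets whose mean on that log2 scale matched a signal of about 198 or more. A change was called at a Benjamini-Hochberg adjusted p under 0.05 over all of these. Gfi1 itself was not lower on the knockout-labelled arrays: 1417679_at read 692, 1163 and 1737 there and 632, 608 and 723 on the wild-type arrays (difference 0.76 ± 0.28, SE, limma adjusted p 0.148). Its place relative to the deleted part is not given in the sources used here, so it does not check the labels, and the group is called knockout-labelled throughout. The sort marker Kit was well above the control level on all arrays, with 1452514_a_at at 3512, 4669 and 4496 in the knockout-labelled and 5871, 7052 and 7774 in the wild-type group. It fell by 0.71 ± 0.17 (SE, adjusted p 0.0381) in the knockout-labelled group, a call that held in 7 of 15 alternative fits and was lost with no brightness filter (0.0789) and without any array but wild-type 5 (up to 0.131). The dimmer Kit probe set 1415900_a_at differed by -0.57 ± 0.28 (adjusted p 0.286). Ly6a, which encodes Sca-1, was not analysed here.

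Of the 16 member probe sets 9 were bright enough to be tested, 1 of 5 for the Id genes and 8 of 11 for the E protein genes. Exactly 1 was called, an Id1 probe set that was higher, where 3.63% of all tested probe sets were called, 1.44% higher and 2.19% lower. No E protein probe set was called, but 4 of the 8 tested had an unadjusted p under 0.05, where 19.6% of all tested probe sets did. They were 1416723_at, 1416724_x_at and 1424089_a_at of Tcf4 and 1427670_a_at of Tcf12. Probe sets of the same gene are not independent, so the count does not describe the family as a whole.

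Id1 rose. This gene is a direct target of BMP signalling in many cell types and is known to act in stem and myeloid progenitor cells. Its probe set 1425895_a_at read 766, 520 and 414 on knockout-labelled arrays 5, 7 and 8, against 201, 234 and 213 on wild-type arrays 5, 7 and 8. Every knockout-labelled array lay above every wild-type array, and the knockout-labelled arrays were the more spread. Id1 averaged 567 ± 181 in the knockout-labelled and 216 ± 16.8 in the wild-type group (SD, n = 3 each). The difference was 1.29 ± 0.27 (SE, 95% interval 0.70 to 1.87), or 2.44-fold. limma gave an adjusted p of 0.0209, and the difference ranked 55 from the highest of the 13575. The call was lost without knockout-labelled array 5 (1.05, adjusted p 0.0791), knockout-labelled array 7 (1.32, 0.0643) or wild-type array 7 (1.34, 0.0638), and with no brightness filter (0.0728). It held in 10 of 14 alternative fits. The wild-type signals are not far above the control level, and with only the brightest 40% of probe sets kept Id1 was not tested.

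Id3 had the same order of groups on a dimmer probe set. Id3 is induced by BMP and antigen receptor signals in other cells and, like Id1, blocks E proteins. Probe set 1416630_at read 224, 138 and 118 on the knockout-labelled arrays, against 52.0, 20.1 and 35.2 on the wild-type arrays. The groups did not overlap. Knockout-labelled arrays were above the control level in 2 of 3 cases and wild-type arrays in 0 of 3, so the wild-type level is only a bound. With the control level in place of the wild-type signals, Id3 was 1.23-fold higher in the knockout-labelled group. Knockout-labelled array 7 was itself below the control level and kept its signal there, so this fold is no strict lower bound. Id3 was too dim to be tested. In a fit of all probe sets with no brightness filter its limma adjusted p was 0.0761, and no size is read from that fit because the wild-type signals were below the control level.

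Id2 showed no common direction. It is the Id gene best known for innate lymphoid and dendritic cell development. Probe set 1435176_a_at read 200, 122 and 188 on the knockout-labelled arrays and 145, 147 and 414 on the wild-type arrays. Wild-type array 8 was the highest of the 6 and the others overlapped. Probe set 1453596_at read 216, 128 and 175 on the knockout-labelled arrays and 290, 135 and 120 on the wild-type arrays. The third, 1422537_a_at, lay below the control level on all 6 arrays. None was bright enough to be tested, and without the brightness filter the differences of the first and second were -0.30 ± 0.44 and 0.01 ± 0.40 (SE). The 95% interval of the first ran from -1.27 to 0.68, which leaves room for a difference in either direction. Over the Id genes, 2 of 5 probe sets, those of Id1 and Id3, had groups that did not overlap with the knockout-labelled group higher, where 8.71% of all 22626 probe sets did. The Id3 wild-type signals were all below the control level, so its separation gives no size.

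**Figure D1:**
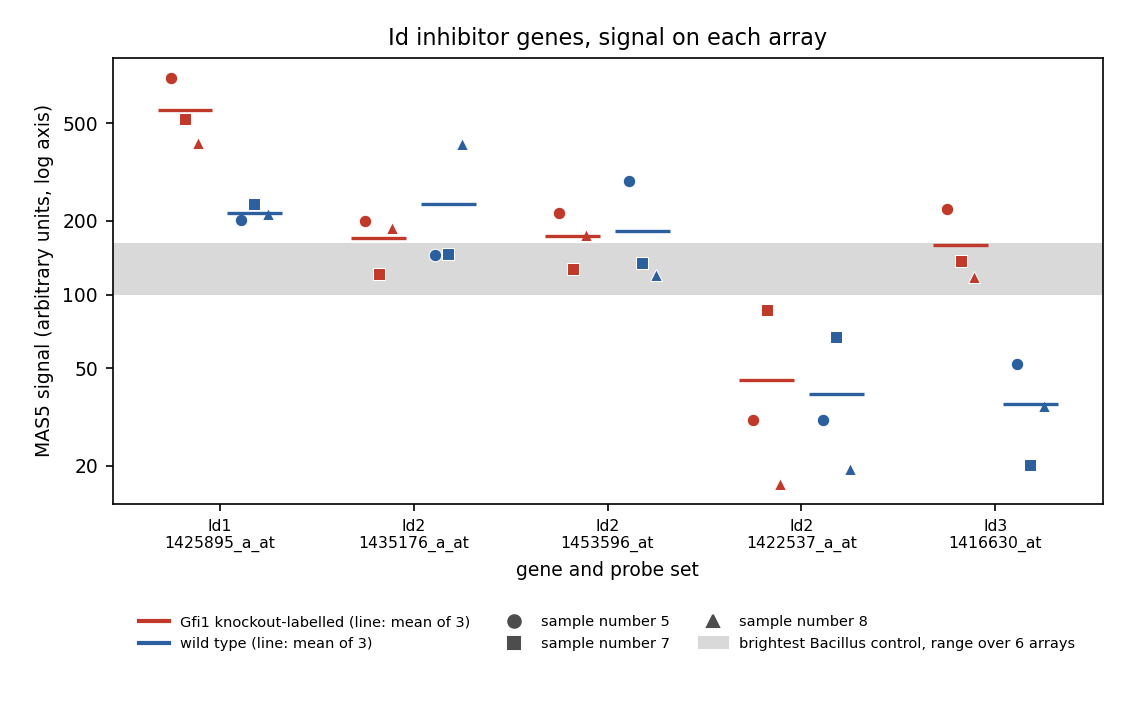
MAS5 signal (arbitrary units, log axis) of the 5 Id probe sets on each array, with knockout-labelled arrays in red left of wild-type arrays in blue, lines at the mean of 3 and a grey band for the range of the Bacillus control level. Id1 and Id3 are the probe sets whose groups stay apart, and the Id3 wild-type points all lie below the band.

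Tcf3 is the E protein gene most needed for the start of the B lineage. Its bright probe set 1426297_at read 532, 560 and 333 on the knockout-labelled arrays, against 576, 576 and 704 on the wild-type arrays. Every knockout-labelled array was below every wild-type array, though those numbered 5 and 7 lay close together and the gap was widest for number 8. The difference of -0.40 ± 0.25 (SE) was not called by limma (adjusted p 0.409). Probe sets 1427764_a_at and 1452542_x_at were below the control level on all 6 arrays and were not tested.

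Tcf4, the E protein gene that plasmacytoid dendritic cells depend on, had 6 probe sets, which share the gene and are not independent. The brightest, 1434148_at, read 1006, 949 and 969 on the knockout-labelled arrays, against 1729, 1909 and 794 on the wild-type arrays. Wild-type array 8 was the lowest of the 6, and the other wild-type arrays were above all 3 knockout-labelled ones. The difference was -0.50 ± 0.28 (SE, limma adjusted p 0.356). Without wild-type array 8 it was -0.89 with an adjusted p of 0.0289, and without wild-type array 7 it was -0.26 with 0.757. Leaving out wild-type array 5 gave -0.33 with 0.608. This probe set was called in 1 of 15 alternative fits. The probe set with the widest difference, 1424089_a_at, read 284, 158 and 137 on the knockout-labelled arrays, against 483, 473 and 247 on the wild-type arrays. Only knockout-labelled array 5 reached above the lowest wild-type array. That difference of -1.004 ± 0.34 (SE) had a limma adjusted p of 0.124. The knockout-labelled mean of 193 was below the brightness filter's level of about 198, so 1424089_a_at reached the test through its wild-type signals. The adjusted p was 0.0501 with the sample number as a replicate block and 0.364 without wild-type array 7.

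The remaining Tcf4 probe sets lay on the same side of 0. Probe set 1416723_at averaged 639.7 ± 151 in the knockout-labelled and 1045 ± 373 in the wild-type group (SD, n = 3 each), with a difference of -0.66 ± 0.27 (SE, limma adjusted p 0.194). For 1416724_x_at and 1434149_at the differences were -0.54 ± 0.25 and -0.32 ± 0.27 (SE), with limma adjusted p of 0.251 and 0.568. The sixth, 1416725_at, was not bright enough to be tested and averaged 79.8 ± 17.2 in the knockout-labelled and 133 ± 25.8 in the wild-type group (SD, n = 3 each). Its groups did not overlap. All 3 knockout-labelled arrays were below the control level and 2 wild-type arrays were just above it, too near to give a fold. Comparing arrays of the same number, the knockout-labelled array was the lower in 17 of 18 Tcf4 comparisons, with number 8 of 1434148_at the exception. These are 6 probe sets of the same gene read on the same 3 pairs of arrays, so the comparisons are not independent. The share over all probe sets was not counted.

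Tcf12, also called HEB, acts with the other E proteins in early T-cell development, and its 2 probe sets disagreed. Probe set 1427670_a_at read 1253, 1559 and 1641 on the knockout-labelled arrays, against 2894, 2133 and 2048 on the wild-type arrays. All knockout-labelled arrays were below all wild-type arrays. The difference was -0.65 ± 0.20 (SE, 95% interval -1.08 to -0.23), which missed the threshold at a limma adjusted p of 0.0868. Probe set 1421908_a_at read 926, 1193 and 1058 on the knockout-labelled arrays and 896, 1279 and 1019 on the wild-type arrays. There the groups interleaved, with a difference of 0.00 ± 0.21 (SE). The stretches of transcript that the probe sets read were not used here, and whether the 2 differences themselves differ was not tested.

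**Figure D2:**
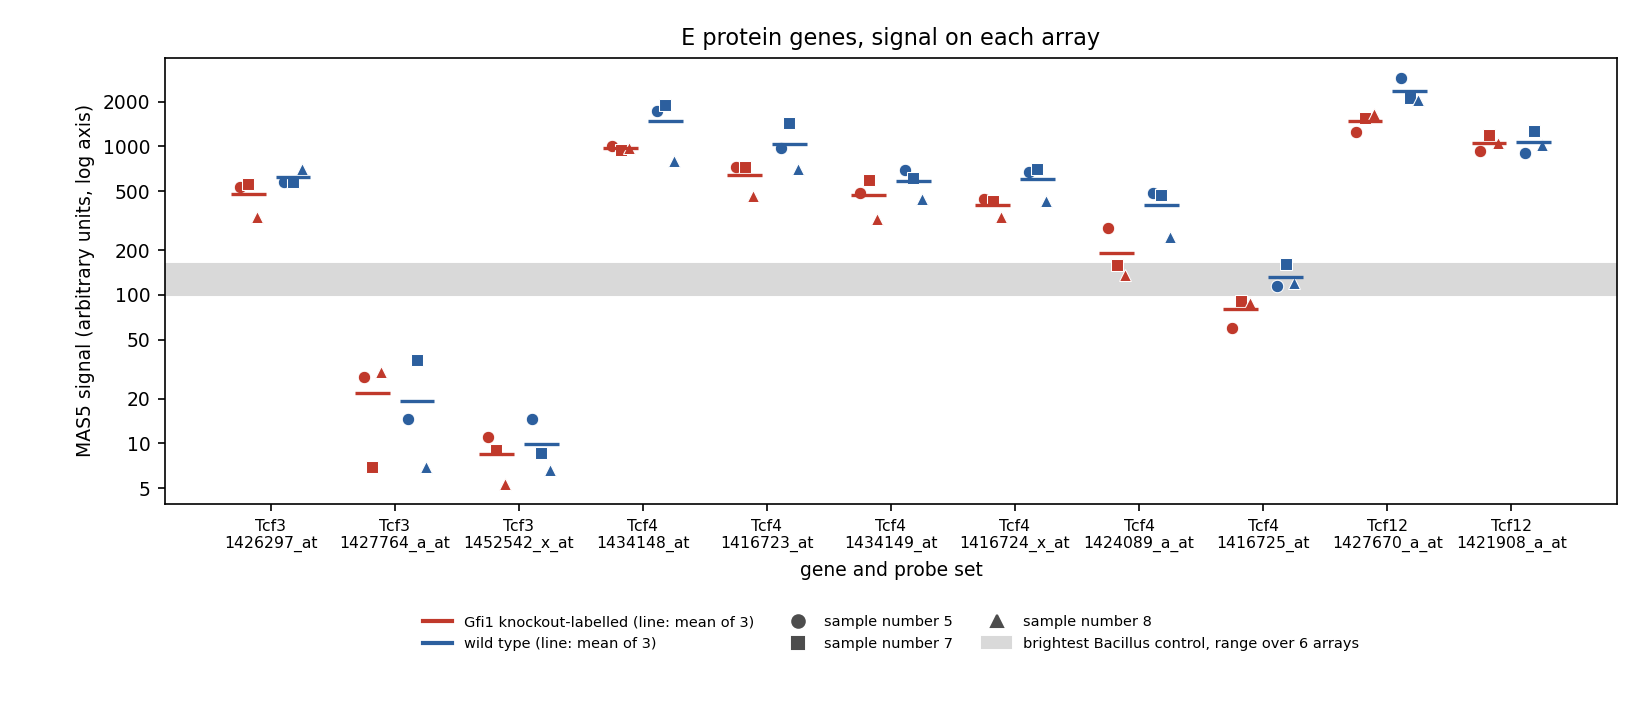
MAS5 signal (arbitrary units, log axis) of the 11 E protein probe sets on each array, knockout-labelled in red left of wild type in blue, with lines at the mean of 3 and the grey band of the Bacillus control level. The Tcf4 probe sets lie lower in the knockout-labelled group, except that wild-type array 8 overlaps it for several of them, and 1421908_a_at of Tcf12 does not separate the groups.

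Set together, 7 of the 8 tested E protein probe sets had a difference below 0, with a median of -0.52, where 51.1% of all tested probe sets were below 0. Of these 8 probe sets 5 belong to Tcf4. In 3 of the 11 probe sets, 1426297_at, 1416725_at and 1427670_a_at, the groups did not overlap with the knockout-labelled group lower, where 10.0% of all probe sets did. Of these, 1416725_at was below the control level on all 3 knockout-labelled arrays, so its separation gives no size. Taking the brightest probe set of each gene and the wild-type mean as zero, the mean of Tcf3, Tcf4 and Tcf12 was -0.51, -0.41 and -0.62 on knockout-labelled arrays 5, 7 and 8, against 0.18, 0.08 and -0.26 on wild-type arrays 5, 7 and 8. For Tcf12 this mean uses 1427670_a_at and leaves out 1421908_a_at, whose difference was 0.00. Id1 on the same scale was 1.76, 1.21 and 0.89 on the knockout-labelled arrays and -0.09, 0.11 and -0.02 on the wild-type arrays. Id2 did not share that rise, at -0.05, -0.70 and -0.14 on the knockout-labelled arrays and -0.48, -0.46 and 0.94 on the wild-type arrays. These are descriptions of the arrays, and signals of different probe sets cannot be set against each other as amounts of RNA.

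**Figure D3:**
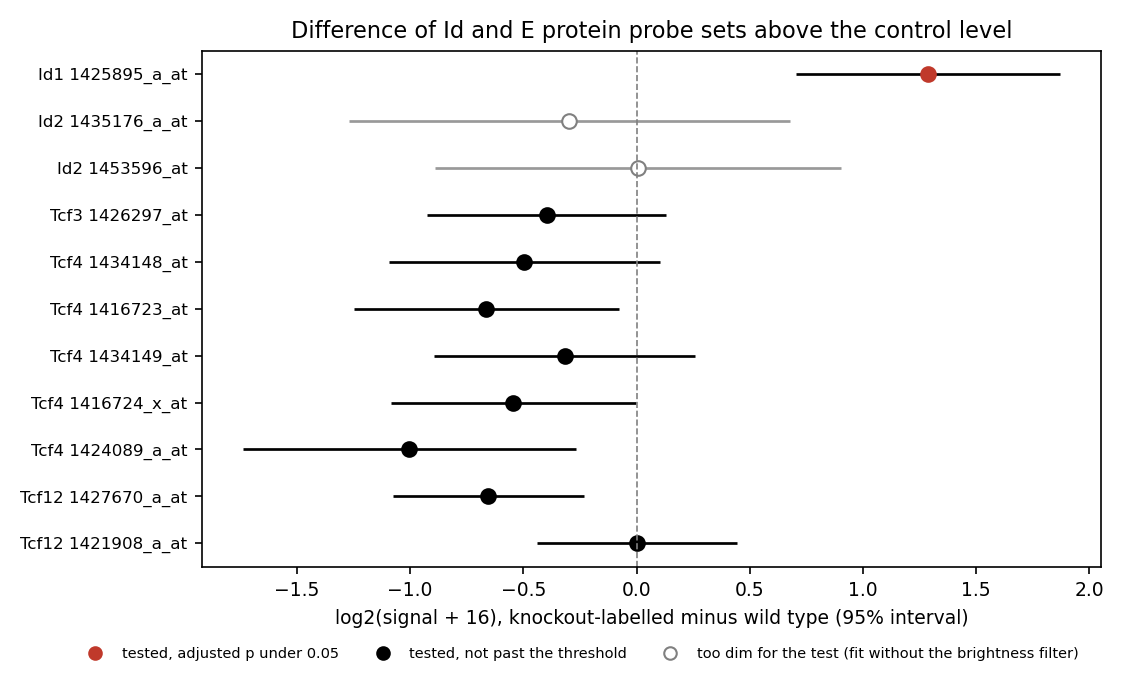
Difference of the 11 member probe sets that rose above the control level on at least 1 array of each group, knockout-labelled minus wild type on log2(signal + 16), with 95% intervals of the fit. Filled points were tested and open points come from a fit with no brightness filter, with Id1 in red as the 1 called.

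**Figure D4:**
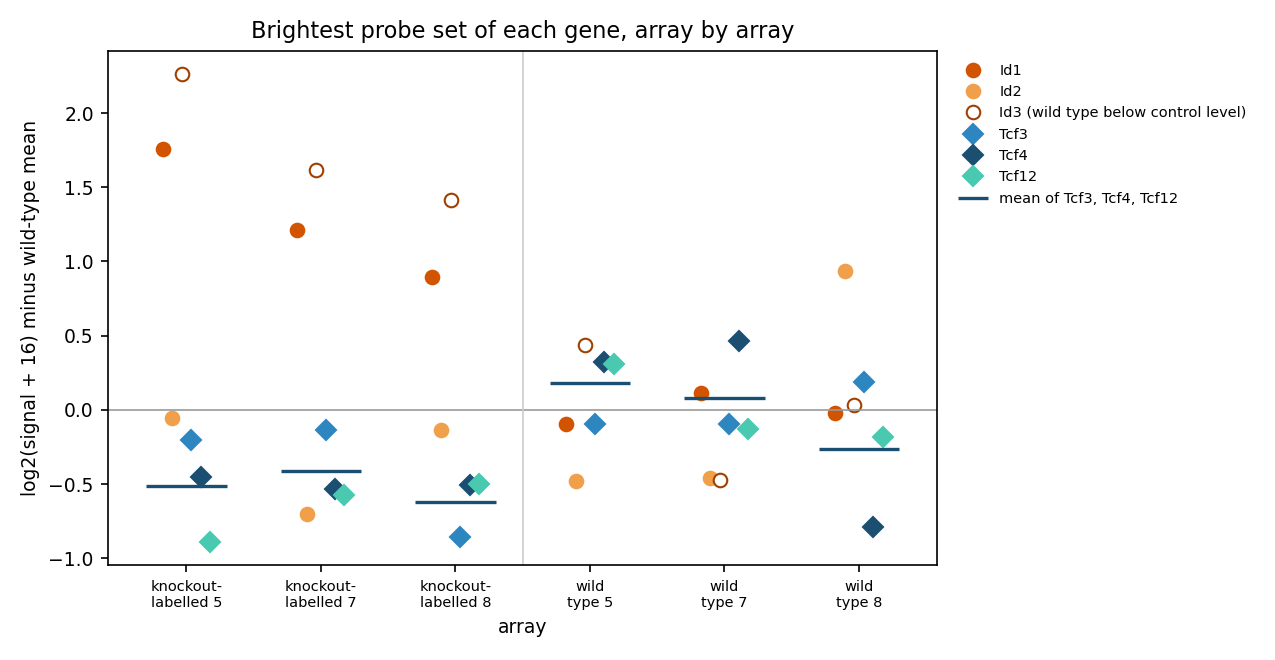
log2(signal + 16) of the brightest probe set of each gene minus its wild-type mean, for each array, with knockout-labelled arrays left of wild-type arrays and bars at the mean of the 3 E protein genes. Id1 lies above 0 on all knockout-labelled arrays, Id3 is drawn open because its wild-type signals were below the control level, and Tcf4 of wild-type array 8 lies at -0.79.

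The genes whose centred profiles over the 6 arrays were nearest to each member's brightest probe set are given as a description. The measure is the root mean square difference on the log2 scale. For Id1 they were Alg3 (0.229), Hopx (0.231) and Nolc1 (0.264), and for Id3 Ffar2 (0.227), Lgals1 (0.339) and Hopx (0.372). Hopx, a homeodomain gene without DNA binding, was in both lists and read 2586, 2335 and 2022 on the knockout-labelled arrays and 1124, 927 and 808 on the wild-type arrays. For Tcf4 they were Prrx1 (0.141), H1f2 (0.141) and Zp1 (0.158), for Tcf3 Inha (0.0503), Mpeg1 (0.0670) and Crkl (0.0877), for Tcf12 Zfp943 (0.0821), Dynlt3 (0.0841) and Enox2 (0.0872), and for Id2 Trim47 (0.130), Il18r1 (0.151) and Cldn13 (0.224). Id3 was above the control level on 2 of 3 knockout-labelled and 0 of 3 wild-type arrays, and Id2 on 2 of 3 in each group. The neighbours of these 2 genes, with Hopx for Id3, thus rest partly on signals below that level.

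Among genes that E proteins are known to activate in lymphoid precursors, 5 of 12 tested fell and 0 rose. All 12 differences were below 0, with a median of -0.77, where 50.8% of the 8239 tested genes were below 0, 1.42% were called higher and 2.48% lower. Il7r, the interleukin-7 receptor, read 649, 596 and 381 on the knockout-labelled arrays and 2933, 2391 and 1365 on the wild-type arrays, and fell by 1.97 ± 0.28 (SE, limma adjusted p 0.00217). Flt3, a growth factor receptor of lymphoid-primed progenitors, read 2242, 2030 and 2626 on the knockout-labelled arrays and 5847, 6125 and 3976 on the wild-type arrays, and fell by 1.19 ± 0.19 (SE, adjusted p 0.00515). Both were clear of overlap and were called in all 15 alternative fits. This list was chosen with earlier results of these data known, and it overlaps genes already known to be lower here, so its direction is no independent evidence.

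Dntt, the enzyme that adds bases at antigen receptor joints, fell by 1.53 ± 0.30 (SE, limma adjusted p 0.0162), and lost the call without knockout-labelled array 8 or wild-type array 7 (up to 0.0823). Ccr9, a homing receptor of thymus-seeding cells, fell by 1.49 ± 0.35 (adjusted p 0.0333), and lost the call without any of knockout-labelled arrays 5, 7 and 8 or wild-type array 7 (up to 0.129), and was too dim to be tested without wild-type array 5. Notch1, the receptor that starts T-cell development, fell by 0.91 ± 0.21 (adjusted p 0.0334), and lost it when any array other than wild-type 8 was left out (up to 0.151). For Ccr9 only 1 knockout-labelled array was above the control level, so its low signals limit the size of that difference. The knockout-labelled mean of 133 was below the brightness filter's level of about 198, so Ccr9 reached the test through its wild-type signals. Fits in which these genes were tested kept the call in 11 of 15 for Dntt, 7 of 13 for Ccr9 and 7 of 15 for Notch1. Rag1, named after its values were seen, read 327, 527 and 284 on the knockout-labelled arrays and 2133, 1203 and 227 on the wild-type arrays (adjusted p 0.277). Its adjusted p was 0.00254 without wild-type array 8 and 0.651 without wild-type array 5. Wild-type array 8 was the lowest wild-type array for Il7r, Flt3, Dntt, Ccr9, Notch1 and Rag1, as it was for 5 of the 6 Tcf4 probe sets. The part of that array in these differences was not tested beyond leaving it out.

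E protein partners and cofactors had 0 of 12 tested genes called, with a median of -0.16. The smallest p values were those of Crebbp, a histone acetyltransferase that E proteins recruit (-0.95 ± 0.28, SE, limma adjusted p 0.0797), Cbfa2t2, a corepressor of the ETO family (-0.60 ± 0.19, 0.109), and Lmo2, the bridge of the Tal1 complex (-0.29 ± 0.13, 0.216). Genes of Id and E protein stability also had 0 of 11 called, with a median of 0.05. The smallest p values there were those of Cops5, a COP9 signalosome subunit (0.41 ± 0.16, adjusted p 0.184), Ccne1, cyclin E (0.79 ± 0.34, 0.217) and Wdr48, a partner of the deubiquitinase that spares Id proteins (-0.43 ± 0.21, 0.273). Among other bHLH factors 2 of 21 tested fell, Ahr, the receptor of dioxin-like ligands (-1.23 ± 0.26, adjusted p 0.0220), and Mycn, a Myc family gene (-0.75 ± 0.18, 0.0339). Of all 8239 tested genes 2.48% were called lower. Ahr lost the call when any array other than wild-type 8 was left out (up to 0.114), and Mycn when any of the 6 was (up to 0.102).

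In the BMP and TGF-beta pathway list, of which BMP signalling is the part known to induce Id genes, 1 of 18 tested genes rose and 0 fell. The median was -0.19, and of all 8239 tested genes 1.42% were called higher and 2.48% lower. Tgfb1, a secreted ligand, read 359, 377 and 341 on the knockout-labelled arrays and 79.7, 226 and 121 on the wild-type arrays, a difference of 1.35 ± 0.34 (SE, limma adjusted p 0.0458). The groups were apart, but only 2 of 3 wild-type arrays were above the control level, which limits the size of the difference. The wild-type mean of 142 was below the brightness filter's level of about 198, so Tgfb1 reached the test through its knockout-labelled signals. Tgfb1 was called in 7 of the 11 alternative fits that tested it. It lost the call without wild-type array 5 or wild-type array 8, with no brightness filter and without the variance trend (up to 0.131), and was too dim to be tested without any of the 3 knockout-labelled arrays or with only the brightest 40% kept. Acvr2a, an activin and BMP receptor named after its values were seen, had a difference of -0.99 ± 0.26 (adjusted p 0.0521) and passed only with the sample number as a replicate block (0.0478). The BMP ligand genes Bmp2 and Bmp6 were below the control level on all arrays. Among cell cycle genes that E proteins and Ids act on, 1 of 13 fell, with a median of -0.06. This was Ets1, a transcription factor of lymphocytes (-1.19 ± 0.22, adjusted p 0.0120), which lost the call without wild-type array 7 (0.0557).

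**Figure D5:**
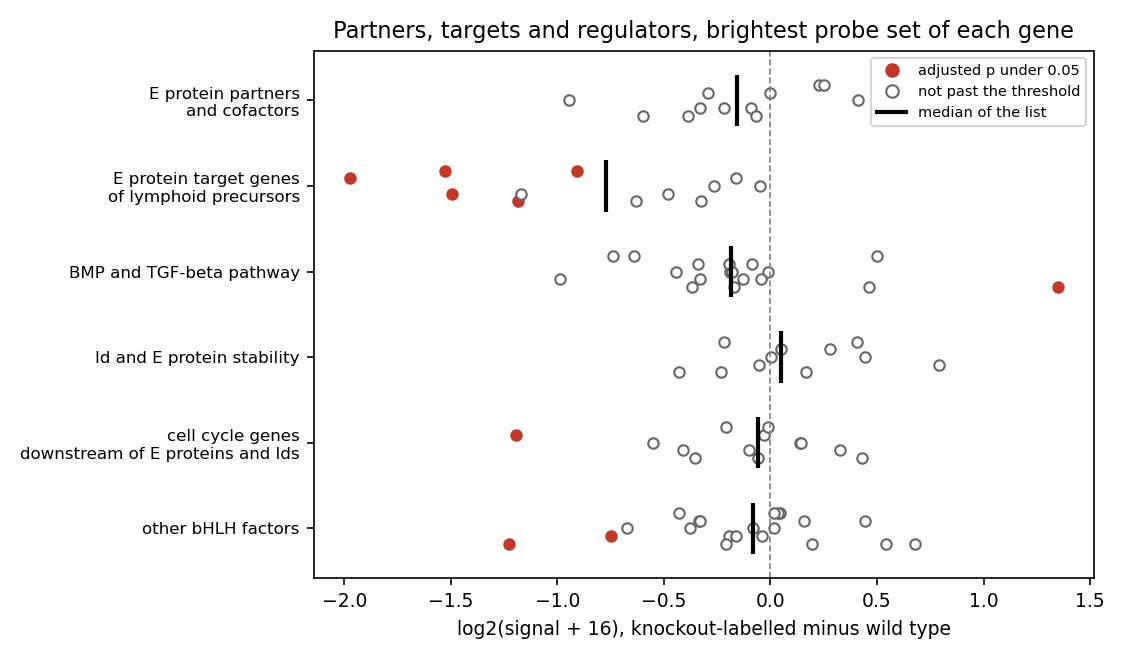
Difference of the brightest tested probe set of each gene in 6 lists, knockout-labelled minus wild type on log2(signal + 16), with filled points for adjusted p under 0.05 and a bar at each list's median. The lymphoid target list lies wholly below 0 with 5 filled points, and the partner and stability lists have none.

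Some markers of cells outside the LSK gate moved with the groups, and fewer cells of a type cannot be told apart from less RNA per cell in such bulk samples. For the counts below, 1.42% of all 8239 tested genes were called higher and 2.48% lower. Of the monocyte, macrophage and conventional dendritic cell list, 3 of 8 tested genes rose (Ccr2, Ms4a6c and Csf1r) and 0 fell. Ccr2 and Ms4a6c were called in all 15 alternative fits and Csf1r in 5 of 15. The summed signal of this list was 31812 to 38004 in the knockout-labelled and 19579 to 24797 in the wild-type group. The brightest genes weigh most in such a sum. Of the neutrophil list, 1 of 9 rose and 5 fell, with sums of 7268 to 14748 in the knockout-labelled and 20654 to 41865 in the wild-type group. Among the fallen, Camp averaged 148 in the knockout-labelled group, below the brightness filter's level of about 198, and reached the test through its wild-type signals. The innate lymphoid, T and NK cell list, where Id2 is known to act, had 0 of 7 higher and 1 lower (Klrd1), with sums of 6441 to 7530 in the knockout-labelled and 6356 to 7365 in the wild-type group. Plasmacytoid dendritic cell markers, beside Tcf4, had 0 of 6 called, a median of -0.50 and sums of 5947 to 7194 in the knockout-labelled and 6926 to 8350 in the wild-type group, and Klk1 of that list lay below the control level on all arrays. Of the basophil and mast cell list 1 of 4 rose, with sums of 5897 to 8399 in the knockout-labelled and 3021 to 5357 in the wild-type group. The B-cell (5 genes), plasma cell (4), erythroid (4), megakaryocyte (4) and endothelial and stromal (6) lists had 0 called. With the sample number as a replicate block 1 more gene fell in each of 3 lists: Tlr7 of the plasmacytoid dendritic cells (difference -1.04, limma adjusted p 0.0391), Blnk of the B cells (-0.86, 0.0473) and Sdc1 of the plasma cells (-0.87, 0.0444). In the same fit 7 neutrophil genes fell and 2 basophil and mast cell genes rose. What these cells contributed to the Id and E protein signals was not tested.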

How the data were processed

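Gene expression of sorted LSK cells was measured in 6 samples, 3 labelled Gfi1 knockout and 3 wild type. The authors deposited linear intensity values for each probe set on each array, made with MAS5 per the submitters' processing notes, with no version or settings stated there. Each array was already scaled to a common trimmed mean. Of 22690 probe sets the 64 AFFX controls were left out, and only probe sets with 1 symbol in the platform annotation (20380 of 22626) were named, an annotation that can be old.

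The values were put on the log2(signal + 16) scale and not normalized again. limma 3.58.1 in R 4.3.3 (lmFit, eBayes with trend) fitted the 6 arrays, two-sided, with Benjamini-Hochberg adjustment over the 13575 probe sets kept by brightness. An exact permutation test of 3 against 3 arrays cannot go below p = 0.1 and was not used. Precision is limited by the number of arrays. The fit was tested on simulated data with independent noise on each array and no pairing by sample number, so that test does not cover paired samples. Each listed gene was read from its brightest probe set, and lists were counted, not tested as sets. The members, lists and naming rule were chosen with earlier results of these data known. The rule named every member probe set, each called gene of a list or else the 3 with the smallest p, and the 3 nearest profiles of each member.

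Alternatives changed the pseudocount, brightness filter, scaling, variance trend and arrays, and added the sample number as a replicate block. Same-numbered samples deviated together from their group means (correlations of 0.159, 0.168 and 0.238), so the numbers 5, 7 and 8 were taken as pairing them. The main fit leaves this pairing out, so every SE, interval and adjusted p is unpaired unless the replicate block is named. The correlations of differently numbered samples were -0.134 to -0.0307. Deviations within a group cancel out, so positive values for same-numbered samples push the others negative, and these are no separate support.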

Additional observations from a re-analysis of the deposited data

How the results depend on the processing

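With the sample number as a replicate block, a paired analysis, Id1 stayed called (adjusted p 0.0198) and no other member's call changed. The block raised the calls over all tested probe sets to 320 higher and 479 lower, against 196 and 297 without it, and added 1 lower gene to the BMP and TGF-beta list, 1 each to the plasmacytoid dendritic cell, B-cell and plasma cell markers and 2 to the neutrophil markers, and 1 higher gene to the basophil and mast cell markers. With no brightness filter the calls were 69 higher and 119 lower over all probe sets, 0 higher for the Id probe sets, 2 lower lymphoid targets, 0 higher BMP and TGF-beta genes and 0 lower other bHLH factors. Without the variance trend they were 57 higher and 124 lower over all probe sets, with 2, 0 and 0 for the same 3 lists. Centring each array on its median gave 193 lower over all probe sets and 1 lower other bHLH factor. The filter that kept the brightest 40% gave 0 higher for the Id probe sets, 0 higher for BMP and TGF-beta and 0 lower for cell cycle genes, since it tests fewer genes. Leaving out 1 array at a time gave 35 to 270 higher and 89 to 288 lower over all tested probe sets. On the same left-out arrays there were 0 to 1 Id probe sets higher, 0 to 1 E protein probe sets lower, 2 to 6 lymphoid targets lower, 0 to 1 BMP and TGF-beta genes higher, 0 to 1 cell cycle genes lower and 0 to 1 other bHLH factors lower. The Tcf12 probe set 1421908_a_at had no settled sign, at -0.000206 with a pseudocount of 64 and -0.11 to 0.14 over the left-out arrays. Unless named, the cause of a change was not tested. Signals near the control level limit what can be said of Id2, Id3 and the dim Tcf3 and Tcf4 probe sets.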
